A study of Rattus norvegicus with 8 samples.

Results

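The genes described here encode 10 transporters and partner subunits that carry amino acids across the tubular epithelium of the kidney: Slc3a1, Slc7a9, Slc7a13, Slc3a2, Slc7a7, Slc7a8, Slc7a12, Slc6a18, Slc6a19 and Slc1a1. They were chosen by name, and the probes of each gene were found through the transcript accession in the array files, which matched 11 probes among 17514 that could be named in this way. They are 10 of 14737 named genes on the array, and all 11 probes were well above background on each of the 8 arrays, so none was lost to the filter on dim probes. The study compared kidney cortex between untreated adult male and female rats of the strain RCCHanTMWIST, with 4 males and 4 females and 1 rat per array. Total RNA from cortical slices was labelled with Cy3 and hybridised to one-colour Agilent arrays. No hormone level, castration or other manipulation distinguishes the groups, so sex is compared together with all that goes with it in intact animals, and the labels give no age beyond adult.

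Almost all of the amino acids filtered at the glomerulus are taken back by the proximal tubule, through carriers of the brush border that face the tubular fluid and carriers of the basolateral membrane that face the blood. Several of these carriers work only as pairs, in which a light subunit moves the substrate and a heavy subunit brings it to the membrane: Slc3a1 (rBAT) serves the brush border and Slc3a2 (the CD98 heavy chain) serves the basolateral side. Loss of Slc3a1 or Slc7a9 in humans causes cystinuria, loss of Slc7a7 causes lysinuric protein intolerance, loss of Slc6a19 causes Hartnup disorder and loss of Slc1a1 causes dicarboxylic aminoaciduria.

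Two-sided tests with limma placed 1 of the 10 genes higher in females, Slc7a12, and 1 higher in males, Slc1a1, at a Benjamini-Hochberg adjusted p below 0.05 over 23425 tested probes. Of all tested probes, 8.06% passed this threshold, 4.67% as higher in females and 3.39% as higher in males. Slc7a12 was also the only one of the 10 with at least a 2-fold difference, which 1.89% of the tested probes reached together with the adjusted p. In 5 of the 10 genes (Slc7a12, Slc7a13, Slc7a8, Slc7a9 and Slc1a1) no male value lay within the female range or the reverse, against 18.5% of the tested probes. The log2 difference, male minus female, was positive in 7 genes and negative in 3, with a median of 0.157 against -0.045 over all tested probes, and its median size was 0.26 against 0.154. Whole cortex was measured, so that fewer cells of a type and less RNA per cell cannot be told apart.

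**Figure D1:**
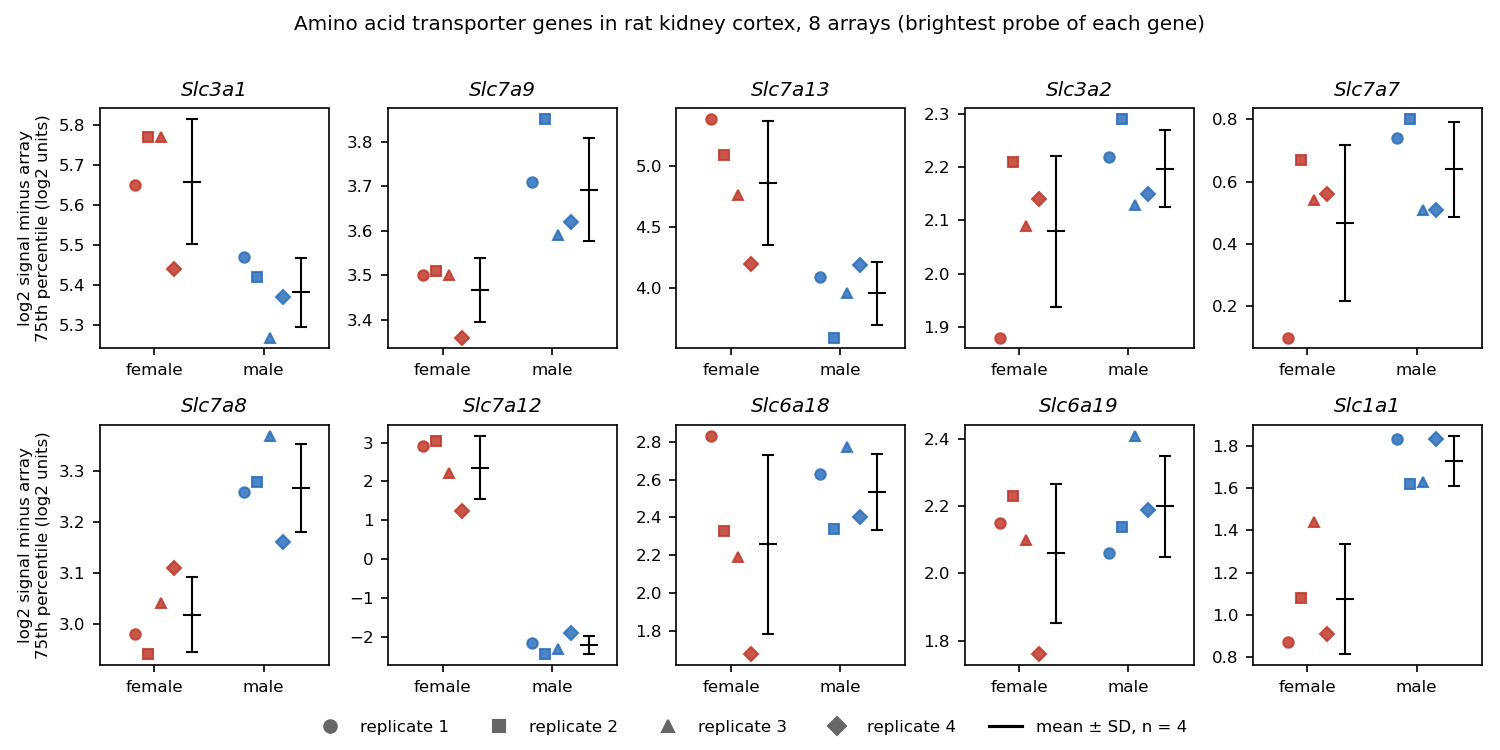
Signal of the 10 transporter genes on each of the 8 arrays, as the log2 signal of the brightest probe minus the 75th percentile of that array, with each panel on its own scale; symbols mark the replicate, and black bars give the mean and SD of 4 rats. Slc7a12 ran from 1.25 to 3.04 in females and from -2.45 to -1.91 in males, while the sexes overlapped in Slc3a1, Slc3a2, Slc7a7, Slc6a18 and Slc6a19.

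Slc7a12 is a carrier of small neutral amino acids from the family of light subunits, and it was far higher in females. On the log2 scale relative to the 75th percentile of each array, used for all levels here, its probe A_64_P048908 read 2.91, 3.04, 2.22 and 1.25 in female replicates 1 to 4. The 4 males read -2.17, -2.45, -2.33 and -1.91. All females lay above all males, with a gap of 3.16 between the lowest female and the highest male, and female replicate 4 was the lowest of the females. Females averaged 2.35 ± 0.823 (SD, n = 4), whereas the mean of males was -2.21 ± 0.233 (SD, n = 4). The log2 difference of -4.57 (SE 0.367, 95% interval -5.41 to -3.73) corresponds to a 23.7-fold higher signal in females (interval 13.2 to 42.5), with a limma adjusted p of 0.000531. An exact two-sided permutation test gave p = 0.0286, the smallest value that 4 against 4 arrays allow. In size, the difference exceeded that of 99.9% of the tested probes.

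The difference in Slc7a12 was present in both rows of the slide, each of which held 2 arrays of each sex. It was -3.77 in the row with female replicates 3 and 4 and -5.36 in the other row. Over the fits that left out 1 array it ran from -4.94 to -4.34, and without female replicate 4 it was -4.94, or 30.6-fold, with a limma adjusted p of 7.98e-05.

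Androgen receptor and BCL6 motifs were searched for because the study predicted such sites upstream of Oat1 and Oat3, which are not among the 10 genes. The 250 bases before the annotated start of Slc7a12 are shown because, of the 10 genes, it had the largest sex difference. They lie at chr2:88868104-88868353 on the minus strand of the RefSeq assembly GRCr8, and capitals mark the androgen receptor half-site AGAACA, 37 to 32 bases before the start.
Slc7a12 promoter: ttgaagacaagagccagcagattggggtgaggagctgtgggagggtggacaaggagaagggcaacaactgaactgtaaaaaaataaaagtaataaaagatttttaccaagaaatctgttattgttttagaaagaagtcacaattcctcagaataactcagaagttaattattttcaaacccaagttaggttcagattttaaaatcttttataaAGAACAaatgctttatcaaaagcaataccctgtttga
AGAACA was searched on both strands in the same window of 33469 RefSeq promoters and occurred in 17.5% of them. Among 9 such promoters of 8 of the transporter genes, 1 held it, that of Slc7a12. The core shared by STAT factors and BCL6, TTCNNNGAA, occurred in 7.67% of all promoters and in 0 of these 9. The promoter table used here held no entry for Slc1a1 or Slc7a13. A match to so few letters is a description of the sequence, and no binding was measured. The study scanned a longer upstream region with other software, so its predicted sites and these counts cannot be compared. In its reporter assays testosterone did not significantly activate the Oat1 and Oat3 promoters, while BCL6 activated most of the constructs.

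By the root mean square distance between centred profiles of 8 values, the 3 named genes nearest to Slc7a12 among 13149 candidate probes were Slc22a7, C5h8orf34 and Serpina10, at distances of 0.40, 0.43 and 0.47 on the log2 scale. Slc22a7, an organic anion transporter, ranged from 0.13 to 1.58 in females and from -4.60 to -3.80 in males. C5h8orf34 ranged from -3.72 to -2.24 in females and from -7.83 to -7.00 in males. Serpina10, a plasma inhibitor of clotting proteases, ranged from -2.61 to -1.01 in females and from -7.55 to -6.37 in males. All 3 had their lowest female value in replicate 4, as Slc7a12 did. The distance was taken over all 8 arrays, so that both the higher female level of these genes and their low value in that replicate follow from how they were chosen.

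Among the brush border carriers of cystine, dibasic and acidic amino acids, the female signal of Slc7a13 was 1.86-fold that of males and did not pass the threshold. Slc3a1 and Slc7a9 did not pass either, and their differences had opposite signs. Slc7a13 is a light subunit that carries cystine, aspartate and glutamate in the late proximal tubule and pairs with Slc3a1. Probe A_64_P007023 read 5.38, 5.09, 4.76 and 4.20 in females and 4.09, 3.60, 3.96 and 4.19 in males. The sexes did not overlap, but female replicate 4 and male replicate 4 differed by only 0.01. The log2 difference was -0.90 (SE 0.247, 95% interval -1.46 to -0.33), with a limma adjusted p of 0.0639 and an exact permutation p of 0.0286.

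The call for Slc7a13 depended on female replicate 4 and on the processing. Without female replicate 4 the difference in Slc7a13 was -1.12, or 2.17-fold, at a limma adjusted p of 0.0161. Leaving out any other array gave limma adjusted p values of 0.0929 to 0.151. With no array left out, Slc7a13 also passed with normexp background correction (limma adjusted p = 0.0401). It passed as well with an intensity trend and robust prior (limma adjusted p = 0.0493). Within the slide rows the difference was -0.34 in the row that held female replicate 4 and -1.45 in the other row. That contrast cannot separate female replicate 4 from its slide row. Female replicate 4 was the lowest female in 6 of the 10 transporter genes. Its mean over 3 markers of the late proximal tubule (Slc5a1, Aqp7 and Ggt1, with no named probe for Slc5a8) was -0.15, against 0.13 to 0.41 in the other females and -0.10 to 0.15 in males, and its mean over 5 collecting duct markers was the highest of all arrays at 1.67. The part of these marker shifts in the Slc7a13 difference was not tested.

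**Figure D2:**
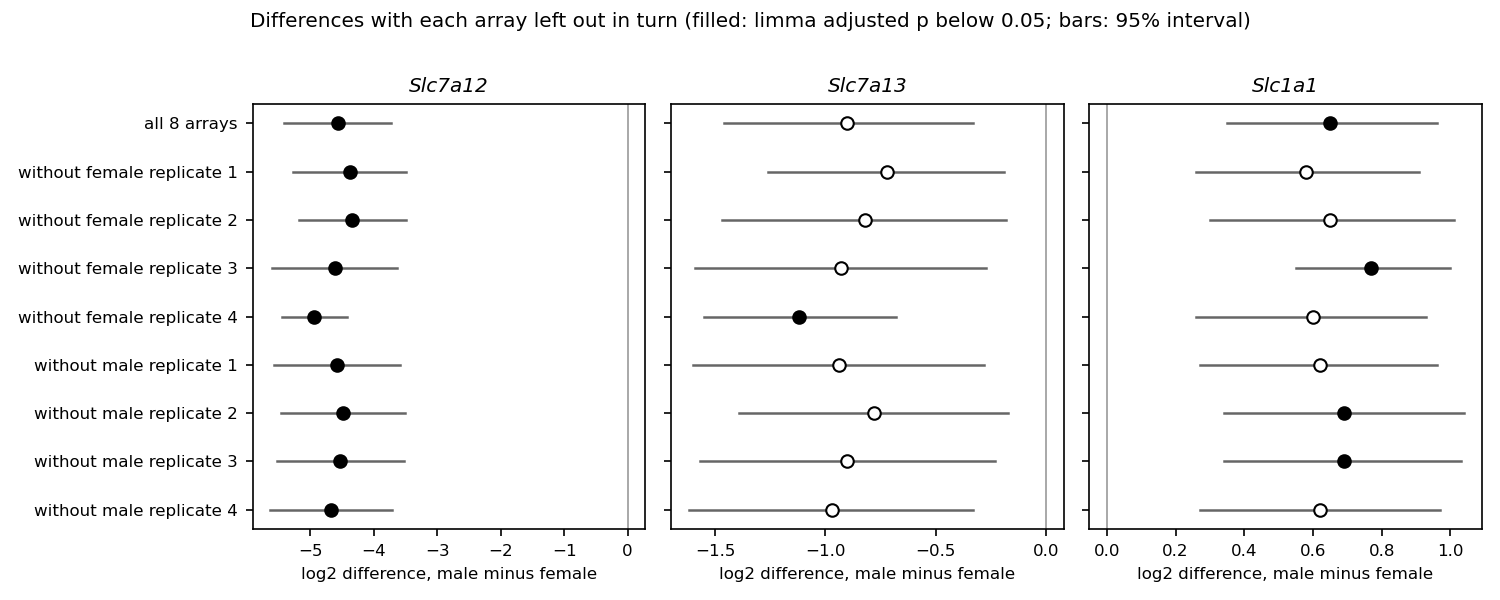
Log2 difference, male minus female, in Slc7a12, Slc7a13 and Slc1a1 with all 8 arrays and with each array left out in turn; horizontal bars give the 95% interval and filled circles an adjusted p below 0.05 in limma. Slc7a12 passed in every fit shown, Slc7a13 passed without female replicate 4 and in no other, and Slc1a1 lost the threshold in 5 of the 8 fits that left out an array.

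Slc3a1, the heavy subunit of the cystine carriers, read 5.65, 5.77, 5.77 and 5.44 in females and 5.47, 5.42, 5.27 and 5.37 in males. The ranges overlapped through female replicate 4, which lay below male replicate 1. The log2 difference was -0.27 (SE 0.0939, 95% interval -0.49 to -0.06, limma adjusted p = 0.116). Without female replicate 4 the difference in Slc3a1 was -0.35, with a limma adjusted p of 0.05 that did not pass. Slc7a9, its light subunit for cystine and dibasic amino acids, read 3.50, 3.51, 3.50 and 3.36 in females and 3.71, 3.85, 3.59 and 3.62 in males at a probe printed 10 times on the array. All males lay above all females. The log2 difference was 0.23 (SE 0.079, 95% interval 0.05 to 0.41, limma adjusted p = 0.119), a 1.17-fold higher signal in males.

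Because the differences of Slc3a1 and Slc7a9 had opposite signs, the log2 value of each light subunit or carrier was set against that of its partner on the same array, which removes any scaling shared by all probes of an array. These 6 pairs were chosen after the values had been seen and are given without a test. Relative to the mean of females, Slc7a9 minus Slc3a1 was 0.04, -0.07, -0.08 and 0.12 in females and 0.43, 0.62, 0.51 and 0.44 in males. Every male lay above every female, and the mean male shift of 0.50 corresponds to a 1.41-fold higher ratio of Slc7a9 to Slc3a1 signal. Without female replicate 4 the shift was 0.54. The shift combines the opposite differences of both genes, which with quantile normalization were 0.266 for Slc7a9 and -0.149 for Slc3a1. Slc7a13 minus Slc3a1 was lower in males by a mean of -0.62, with values of -0.44 to 0.53 in females and -1.03 to -0.38 in males, so that the sexes overlapped.

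**Figure D3:**
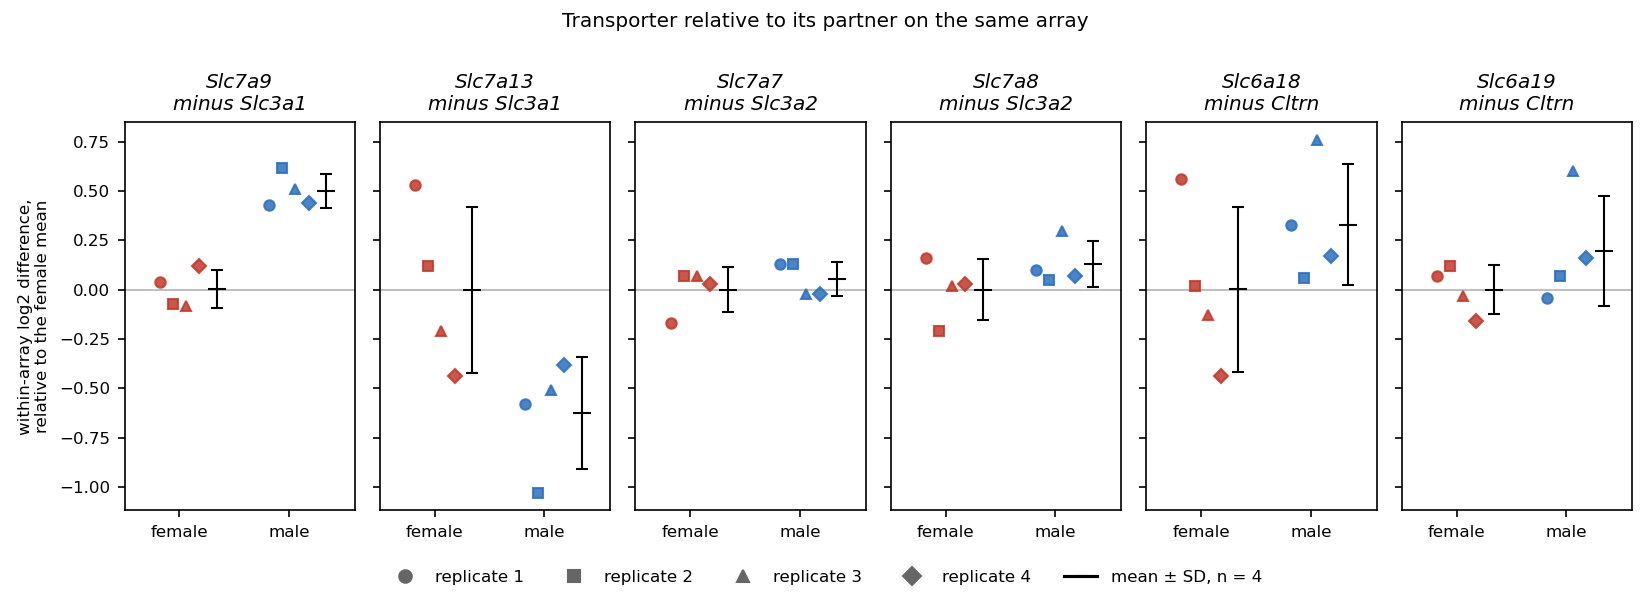
Within-array log2 difference between 6 carriers and their partner subunits, set to a mean of 0 in females; symbols mark the replicate, and black bars give the mean and SD of 4 rats. Slc7a9 relative to Slc3a1 was the only pair of the 6 in which the sexes did not overlap, at -0.08 to 0.12 in females and 0.43 to 0.62 in males.

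On the basolateral side, none of the 3 genes passed the threshold. Slc7a8, the light subunit that carries neutral amino acids, read 2.98, 2.94, 3.04 and 3.11 in females and 3.26, 3.28, 3.37 and 3.16 in males. The males lay above the females on all arrays, with a gap of 0.05. The log2 difference was 0.25 (SE 0.0727, 95% interval 0.08 to 0.41, limma adjusted p = 0.0772), or 1.19-fold. Slc7a7, the light subunit that exports dibasic amino acids in exchange for neutral ones, ranged from 0.10 to 0.67 in females and from 0.51 to 0.80 in males, with a log2 difference of 0.17 (95% interval -0.14 to 0.48, limma adjusted p = 0.474). Slc3a2, the heavy subunit of both, ranged from 1.88 to 2.21 in females and from 2.13 to 2.29 in males, with a log2 difference of 0.12 (95% interval -0.08 to 0.32, limma adjusted p = 0.441). For Slc7a7 and Slc3a2 the lowest female was replicate 1, and for both the intervals leave a difference in either direction possible. Relative to Slc3a2 on the same array, Slc7a8 was shifted in males by 0.13 and Slc7a7 by 0.05, and in both pairs the sexes overlapped.

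The sodium-coupled carriers of neutral amino acids, Slc6a18 and Slc6a19, lie next to each other in the GRCr8 annotation, with 0 protein-coding genes between them. Slc6a18, which favours glycine and other neutral amino acids, read 2.83, 2.33, 2.19 and 1.68 in females and 2.63, 2.34, 2.77 and 2.40 in males at probe A_64_P128852. Female replicate 1 was the highest and female replicate 4 the lowest of the 8 arrays, and the males lay between them. The log2 difference was 0.27 (SE 0.225, 95% interval -0.24 to 0.79, limma adjusted p = 0.492). The second, dimmer probe of Slc6a18, A_43_P11843, had the opposite sign at -0.23 (95% interval -0.79 to 0.33, limma adjusted p = 0.602), and the mean of both probes differed by 0.02.

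Slc6a19, the main brush border carrier of neutral amino acids, read 2.15, 2.23, 2.10 and 1.76 in females and 2.06, 2.14, 2.41 and 2.19 in males. The ranges overlapped, again with female replicate 4 as the lowest array. The log2 difference was 0.14 (SE 0.121, 95% interval -0.14 to 0.42, limma adjusted p = 0.512). Cltrn (collectrin), which brings both carriers to the kidney brush border, differed by -0.06 (limma adjusted p = 0.727). Relative to Cltrn on the same array, Slc6a18 was shifted in males by 0.33 and Slc6a19 by 0.20, and in both the sexes overlapped.

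Slc1a1, the sodium-coupled carrier of glutamate and aspartate in the brush border, was higher in males. Probe A_64_P112994 read 0.87, 1.08, 1.44 and 0.91 in females and 1.83, 1.62, 1.63 and 1.83 in males. The sexes did not overlap, with a gap of 0.18 between female replicate 3 and the lowest male. Females averaged 1.08 ± 0.259 (SD, n = 4), whereas the mean of males was 1.73 ± 0.119 (SD, n = 4). The log2 difference of 0.65 (SE 0.133, 95% interval 0.35 to 0.96) corresponds to a 1.57-fold higher signal in males (interval 1.27 to 1.94), with a limma adjusted p of 0.0238 and an exact permutation p of 0.0286. It was 0.66 in one slide row and 0.65 in the other. The call did not hold without female replicate 1 (0.058), 2 (0.063) or 4 (0.0523) or without male replicate 1 (0.0599) or 4 (0.0617), each value being the limma adjusted p, although the difference stayed between 0.58 and 0.77.

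**Figure D4:**
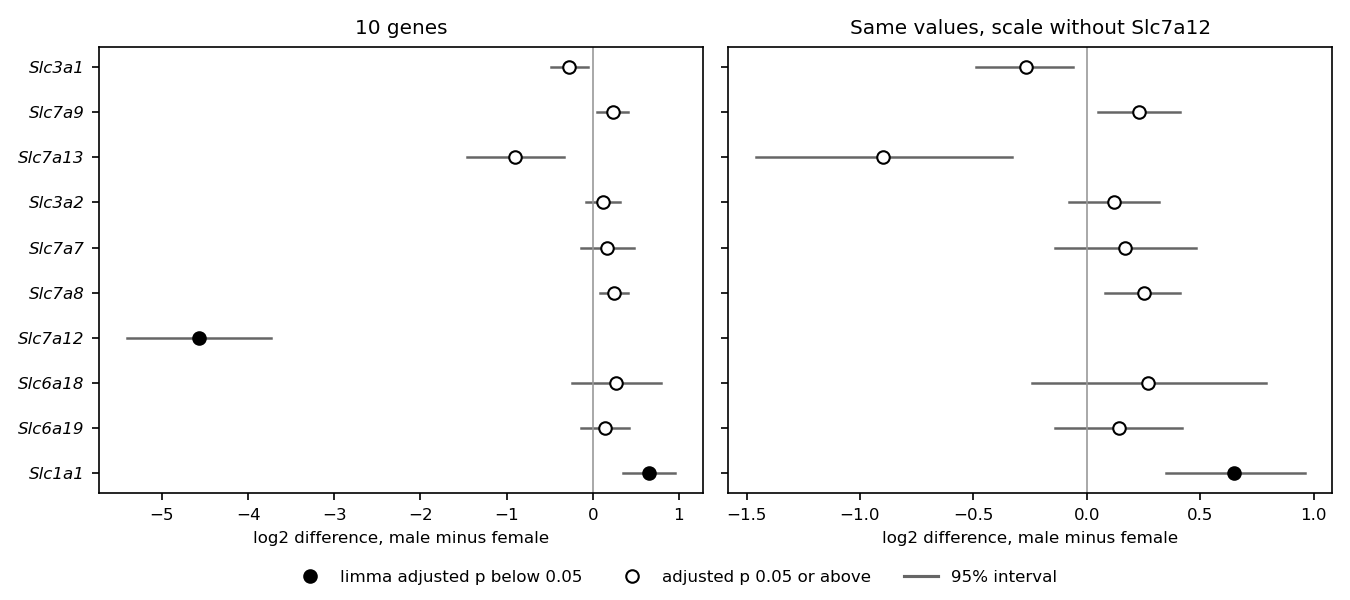
Log2 difference, male minus female, of the 10 transporter genes with its 95% interval; filled circles mark an adjusted p below 0.05 in limma, and the right panel repeats the values on a scale without Slc7a12. Slc7a12 stood at -4.57 and the other genes between -0.90 and 0.65.

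A wider list of 43 amino acid and peptide transporters and partners was described in the same way, of which 31 had a probe above the limit for dim probes, 9 had probes below it and 3 had no named probe. Of the 31, 2 were higher in females and 1 in males at a limma adjusted p below 0.05, and 28 did not pass. A 2-fold difference as well was reached by 0. Over all tested probes, 4.67% passed as higher in females, 3.39% as higher in males and 1.89% with a 2-fold difference. An unadjusted limma p below 0.05 was found in 6 of the 31, or 19.4%, and in 25.6% of all tested probes. The median log2 difference was -0.073, close to the -0.045 of all tested probes, with 23 genes negative and 8 positive. Slc1a5, a sodium-dependent exchanger of neutral amino acids such as glutamine, ranged from -1.95 to -1.61 in females and from -2.69 to -2.01 in males, a log2 difference of -0.63 (limma adjusted p = 0.0378). Slc15a2, the high-affinity peptide transporter of the brush border, ranged from -1.57 to -0.77 in females and from -1.88 to -1.51 in males, a log2 difference of -0.74 (limma adjusted p = 0.0440), and its ranges overlapped through female replicate 4 and male replicate 3. Slc6a13, a carrier of GABA and taurine, ranged from -0.74 to -0.26 in females and from -0.07 to 0.32 in males, a log2 difference of 0.56 (limma adjusted p = 0.0422). Each of these 3 calls was lost in 8 or 10 of 18 alternative fits.

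The peptide transporter Slc15a1, of low affinity, had 3 probes that agreed in direction and not in the call. Its brightest probe read 0.76 to 1.23 in females and 1.17 to 1.51 in males, a log2 difference of 0.47 (limma adjusted p = 0.0634). The dimmer probes, which the array ties to another RefSeq transcript record of the gene, differed by 0.57 and 0.54, with limma adjusted p values of 0.00726 and 0.0411, and in neither did the sexes overlap. Slc43a1, a carrier of large neutral amino acids, differed by -0.48 (limma adjusted p = 0.0527) and Slc38a6, a member of the neutral amino acid carrier family SLC38, by 0.21 (limma adjusted p = 0.194). In Slc36a4 a dimmer probe passed at 0.41 (limma adjusted p = 0.0292) while the brightest probe stood at -0.08.

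**Figure D5:**
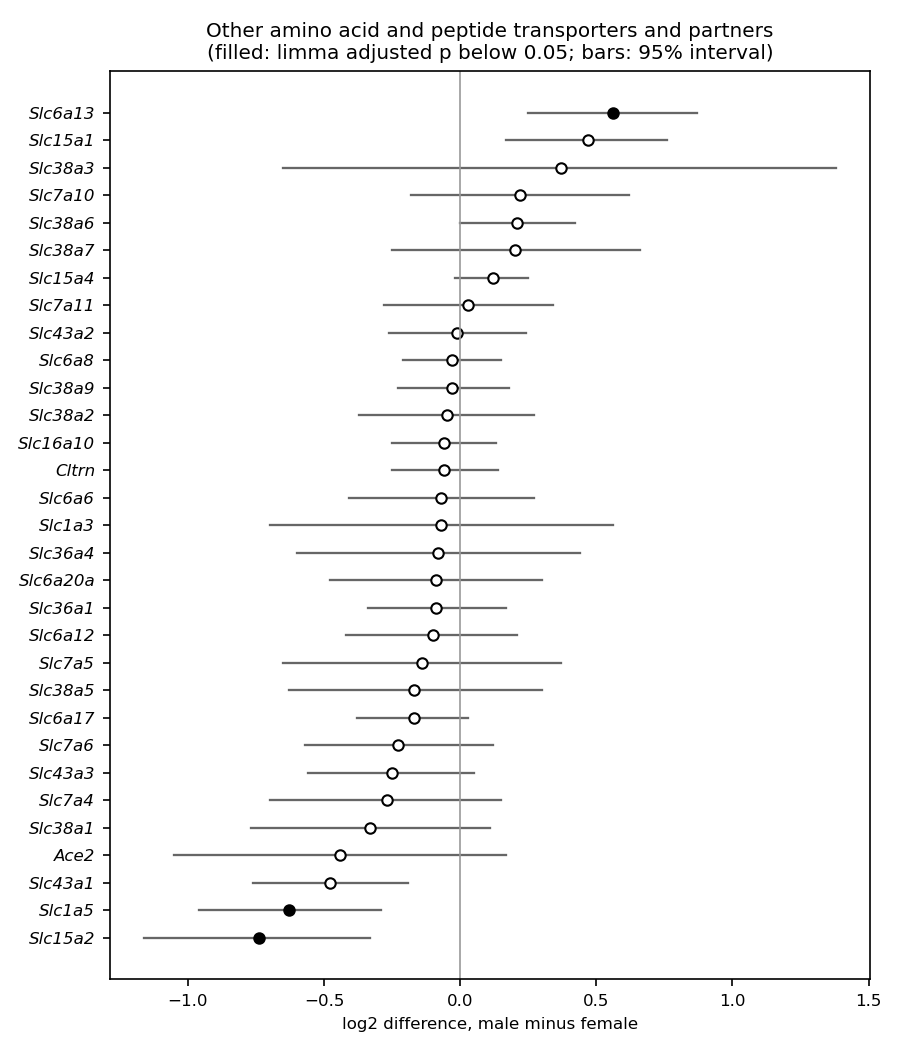
Log2 difference, male minus female, of the 31 tested genes of the wider list, sorted by value, with 95% intervals; filled circles mark an adjusted p below 0.05 in limma. The values ran from -0.74 in Slc15a2 to 0.56 in Slc6a13, and 3 genes passed.

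The labelled tissue carried its markers: all 6 markers of the early proximal tubule were tested and their mean log2 signal was 3.71 to 3.81 in females and 3.66 to 3.74 in males. At a limma adjusted p below 0.05, 4.67% of all tested probes were lower in males and 3.39% higher. Of 28 marker genes tested over all lists, 3 passed as lower in males and 0 as higher. They were Cubn (the protein receptor cubilin) of the early proximal tubule (log2 difference -0.59, limma adjusted p = 0.00452), Cldn16 (a tight junction protein) of the thick ascending limb (-0.62, 0.0287) and Podxl (podocalyxin) of the podocyte (-0.27, 0.0354). Means over 3 thick ascending limb markers did not overlap between the sexes, at 0.71 to 0.92 in females and 0.57 to 0.68 in males. These markers differed in direction. Beside Cldn16, Umod was lower in males (-0.26, limma adjusted p = 0.088) and Ptger3 was higher (0.40, limma adjusted p = 0.207), neither passing the threshold. Slc12a1, also on this list, had no named probe. Over 2 distal convoluted tubule markers the ranges overlapped, with means of 3.07 in females and 2.97 in males, as they did over 5 collecting duct markers, at 1.21 to 1.67 in females and 1.07 to 1.37 in males. The 2 distal convoluted tubule markers had opposite signs, Slc12a3 at 0.18 and Calb1 at -0.37 (limma adjusted p = 0.498 and 0.246). Means over podocyte markers were -0.43 to -0.24 in females and -0.50 to -0.40 in males, and those over blood markers were 1.56 to 1.80 and 1.61 to 1.93. The blood markers also had opposite signs, Hbb at -0.19 and Ptprc at 0.43 (limma adjusted p = 0.432 and 0.145). Means over 2 adipose markers were -4.92 to -1.98 in females and -5.65 to -3.49 in males, highest in female replicate 1. Most of this spread came from Fabp4, which ran from -8.15 to -3.18 in females and from -9.55 to -5.75 in males. Fabp4 was well above background on 6 of the 8 arrays. Adipoq ran from -1.72 to -0.79 in females and from -1.78 to -1.22 in males. None of the 3 adrenal markers was well above background on at least 4 arrays. The part of these markers in the transporter differences was not tested.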

How the data were processed

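RNA from the kidney cortex of 4 male and 4 female rats was hybridised to 8 one-colour arrays on 1 slide, read in 1 scan. The authors deposited the scanner output of each array, whose processed signal is an intensity corrected for background by Feature Extraction 10.7.3.1, and a table of log2 values, whose processing notes name limma 3.8.2. No coordinates of the array's own genome build were used.

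The intensity was divided by the array's 75th percentile over non-control spots and taken to log2. Outlier spots (0.439 to 1.33% per array) were left out, spots of a probe were averaged, and a probe was tested only if 4 or more of the 8 arrays showed it well above background, which left 23425 of 30367. No spot was saturated. Between 73.8 and 79.1% of the probes of an array were well above background, and the 75th percentile ran from 5024.9 to 6546.6. The precision is limited by the number of arrays. Sexes were compared with limma 3.58.1 (R 4.3.3) and Benjamini-Hochberg adjustment over all tested probes, and single probes with exact two-sided permutation tests over 70 assignments. Alternatives covered normalization, background, filter, prior, blocks, probe averaging and leaving out each array. The scanner files used here held no mean signal, so normexp used the median signal with an offset of 50.

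Genes were led by their brightest probe and named through RefSeq GRCr8 tables. The order of genes and the promoter sequences came from the same assembly. From the wider list, the genes to name were those called with a 2-fold change and, up to 6, those with the smallest adjusted p. Beside them, Slc36a4, Cubn, Cldn16, Umod, Ptger3, Podxl, Slc12a3, Calb1, Hbb, Ptprc, Fabp4 and Adipoq were named after their values had been seen. For a transporter called with a 2-fold change, the 3 genes nearest in profile were named. The transporters, lists and tests were chosen with earlier results of these data known. The labels name 4 animals per sex, and each p-value rests on the spread between them.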

Additional observations from a re-analysis of the deposited data

Results flagged for a closer look

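Of 40 groups of 4 arrays checked, 3 held an array far from the other 3, where chance flags about 1 in 20, or 2 of 40. Slc7a9 read 3.36 in female replicate 4 and 3.50 to 3.51 in the other females. Slc15a2 read -1.51 in male replicate 3 and -1.88 to -1.85 in the other males. Slc22a7, whose profile was nearest to that of Slc7a12, read -4.60 in male replicate 2 and -3.89 to -3.80 in the other males.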

How the results depend on the processing

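At the brightest probe, or the mean of all used probes, the log2 difference of each of the 10 transporter genes kept its direction under all 18 alternatives. In each, 7 of the 10 stayed on the same side of the threshold. The second probe of Slc6a18 had the opposite sign to the brightest, at -0.23. Slc7a12 passed throughout, with log2 differences of -4.94 to -4.34 and limma adjusted p values of 7.98e-05 to 0.012. The count higher in females, 1 as reported, was 2 with normexp background correction and 2 with an intensity trend and robust prior, Slc7a13 being the added gene at limma adjusted p values of 0.0401 and 0.0493. The count higher in males, 1 as reported, was 2 with the intensity trend and robust prior, Slc7a8 being added at 0.0368, and 0 with the replicate block, where Slc1a1 had 0.0802. Leaving out each array in turn gave counts of 1 to 2 higher in females, 0 to 1 higher in males and 1 to 2 with a 2-fold change. The arrays without which a call was gained or lost were female replicate 4 for Slc7a13, and female replicates 1, 2 and 4 and male replicates 1 and 4 for Slc1a1. The slide row as a block changed no call among the 10 genes. Same-numbered males and females correlated in their deviations at 0.125, 0.0427, -0.00794 and 0.117, so the numbers were not taken as pairs, and not every array correlated best with its own number. The causes of these changes were not tested. With 4 arrays per sex, the 95% intervals of Slc3a2, Slc7a7, Slc6a18 and Slc6a19 included differences in both directions.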
